A study of Homo sapiens with 4 samples.

Results

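Skipped exons of the proteasome genes were examined in 293T cells after knockdown of SNORD89, a small nucleolar RNA of the box C/D class. The members were the exon events whose gene symbol begins with PSM, a letter from A to G and a digit, and whose junction reads averaged at least 20 over the 4 libraries. These were 250 events on 199 exons of 43 gene symbols, out of 54503 events on 43103 exons of 9999 genes at the same read minimum. Of the 275 events with such a symbol in the deposited table, 25 lay under the minimum. Just inside it were an exon of PSMA2 with a mean of 26.75 reads and one of PSMA6 with 29.75, and just outside it were one of PSMD12 with 19.25 and one of PSMD3 with 17.25. A proteasome protein is encoded by 42 of the 43 genes. The other, PSMC3IP, encodes a cofactor of meiotic recombination and matches by its symbol only (7 events). No event was in the table for PSMA8, PSMB8, PSMB9, PSMB11, PSMC4 and PSMG3.

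The line 293T derives from human embryonic kidney. The comparison had 2 libraries from untreated cells ("No ASO") and 2 from cells given an antisense oligonucleotide against SNORD89, a gapmer of MOE chemistry transfected with a lipid reagent at 70 nM. Medium was changed after 24 h and RNA was taken after 48 h. Poly(A) RNA was sequenced as 150-base pairs, and the libraries of a group are labelled as biological replicates. No control oligonucleotide is named in the labels, and they do not say whether the untreated cells received the lipid reagent. The effects of the knockdown, of the oligonucleotide and of transfection therefore cannot be told apart. Which set of the deposited table was treated is stated in none of the sources used here, so every direction is given as first set against second set. Libraries are numbered by their place within a set.

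The proteasome is the protease that degrades ubiquitin-tagged proteins in the cytoplasm and nucleus. Its barrel-shaped 20S core holds outer rings of alpha subunits, which gate the entrance, and inner rings of beta subunits, some of which carry the active sites. The 19S cap recognises tagged proteins, removes the ubiquitin and feeds the unfolded chain into the core with a ring of ATPases, and dedicated chaperones help to assemble core and cap. Nearly all cells need the complex, and its subunits are made together in matched amounts.

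Most member exons were included almost fully in all 4 libraries. The inclusion level is the length-corrected share of junction reads that join the exon to its neighbours rather than skip it. Its median over the member events was 99.7%, against 98.3% over all tested events. The level was above 95% in 220 events (88.0%, against 66.1% of all tested events), between 5% and 95% in 13 (5.2%, against 24.6%) and below 5% in 17 (6.8%, against 9.3%). The members were read deeply, with a median of 1330 reads per event and library against 190. Every event in the table has at least 1 read of each form, so an exon that is never skipped, or never included, is not in it. Of the members, 86 rested on 1 to 3 skipping reads summed over the 4 libraries. Events are not independent measurements: 102 shared a skipping junction with another member and 96 shared an exon.

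**Figure D1:**
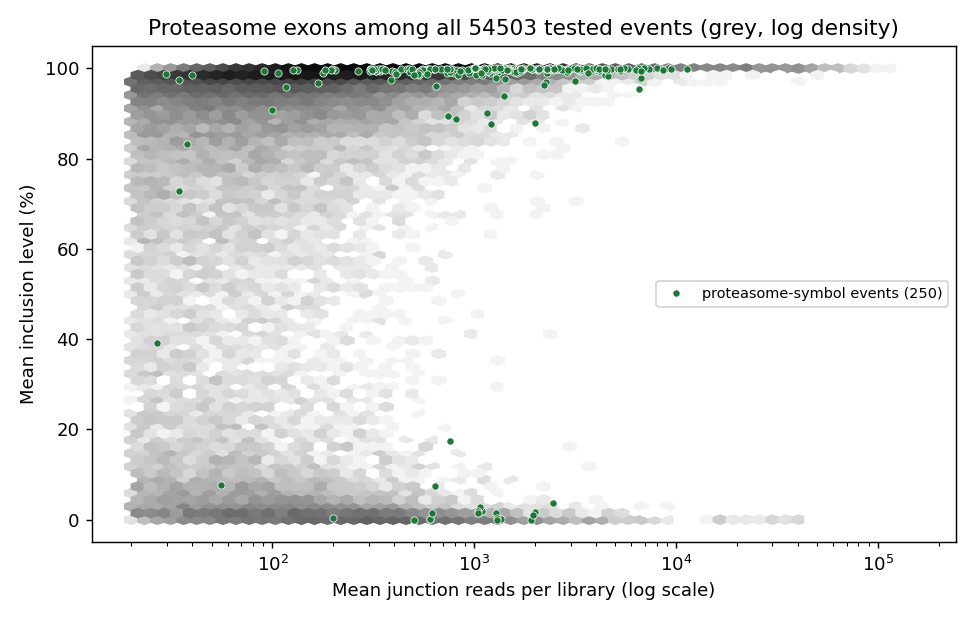
Mean inclusion level (%, vertical axis) against the mean number of junction reads per library (horizontal axis, log scale) for the 250 member events (green points) over all 54503 tested events (grey cells, darker where more events fall, on a log scale). Most green points lie above 95% and to the right of the bulk of the grey cells, and 17 lie below 5%.

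The exons below carry the findings that follow. Each is written 5′ to 3′ on its gene's strand, from GENCODE release 29 transcripts. The coordinates are those of the deposited table (hg19). The 63-nt exon of PSMG1, on the minus strand of chromosome 21 at 40551850 to 40551912, is coding, keeps the reading frame when skipped, and was included at a similar intermediate level in every library. In PSMA4 (plus strand, chromosome 15, 78834825 to 78834987) and PSMB3 (plus strand, chromosome 17, 36916684 to 36916861), capitals mark a shorter form of the exon that starts at an internal splice site and shares the exon's end. In PSMD6 (minus strand, chromosome 3, 64008319 to 64008477), capitals mark a shorter form that shares the exon's start. The 99-nt exon of PSMD10 (minus strand, X chromosome, 107331982 to 107332080) had the lowest FDR among the members.
PSMG1: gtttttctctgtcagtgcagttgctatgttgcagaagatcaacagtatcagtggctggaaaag
PSMA4: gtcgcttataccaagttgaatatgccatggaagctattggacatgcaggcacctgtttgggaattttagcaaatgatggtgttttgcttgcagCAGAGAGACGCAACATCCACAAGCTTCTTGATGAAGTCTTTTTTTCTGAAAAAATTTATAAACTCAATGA
PSMB3: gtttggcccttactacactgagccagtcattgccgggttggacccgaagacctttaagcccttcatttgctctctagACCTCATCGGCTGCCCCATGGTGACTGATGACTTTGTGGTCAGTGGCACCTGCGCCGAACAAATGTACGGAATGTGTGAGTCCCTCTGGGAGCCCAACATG
PSMD6: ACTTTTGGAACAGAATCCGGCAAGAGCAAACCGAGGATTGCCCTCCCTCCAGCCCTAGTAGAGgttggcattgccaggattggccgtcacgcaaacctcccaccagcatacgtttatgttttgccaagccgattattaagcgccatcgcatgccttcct
PSMD10: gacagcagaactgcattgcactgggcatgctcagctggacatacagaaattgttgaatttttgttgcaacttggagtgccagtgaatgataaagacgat

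Several exons that most transcripts leave out bring a stop codon into frame, as annotated. The sequences below run from the first base of the exon to that stop, which is in capitals. The PSMG4 exon (plus strand, chromosome 6) has a 152-nt form from 3264408 to 3264559, shown here, and a 117-nt form that begins at 3264443. The others are the 60-nt exon of PSMA2 (minus strand, chromosome 7, 42970695 to 42970754) and the 117-nt exon of PSMD12 (minus strand, chromosome 17, 65358892 to 65359008).
PSMG4: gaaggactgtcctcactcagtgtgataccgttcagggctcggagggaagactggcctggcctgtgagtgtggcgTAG
PSMA2: cttcttacagatgaacTAA
PSMD12: gcatgcctttataggtatTGA

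Between the sets, no member event passed the call used for this table, an FDR under 0.05 with a difference in inclusion level of at least 0.1 in the authors' deposited table. Of all tested events, 2.71% did. With the FDR alone, 3 members (1.2%) were under 0.05 in the authors' deposited table, against 5.72% of all tested events. At an unadjusted p under 0.05 the authors' deposited table held 13 members (5.2%), against 14.3%. A quasi-binomial model called 0 members after Benjamini-Hochberg adjustment, with 0.00183% of all tested events called, which is 1 event. This model took the scatter between libraries from events with at least 10 reads of the rarer form. It had 3 members at an unadjusted p under 0.05 (1.2%, against 3.27%). Without library 1 of the second set this model called 3 members (1.2%, against 1.16% of all tested events), the PSMD10 exon described below and 2 forms of 1 exon of PSMB4. The limma test on log2 ratios called 0 members and 0.0% of all events, with 1 member at an unadjusted p under 0.05 (0.4%, against 4.87%). On simulated data that fit recovered none of the changes, so its 0 calls carry no information. Limma with precision weights called 3 (1.2%, against 0.657%). The simulations held 200 changes of 0.3 in level, placed among all tested events with a level between 5% and 95%. Of the 250 members, 13 had a mean level in that range. Of these the quasi-binomial model recovered 147 with counting noise alone and 62 with scatter between libraries added. Limma with precision weights recovered 96 and 0. Recovery was not measured for the members alone, so these rates are not theirs. The 0 calls of the quasi-binomial model therefore do not exclude changes in the members.

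The differences themselves were small. The median absolute difference between the sets was 0.189 percentage points over the members and 1.14 over all tested events. The median gap between the 2 libraries of a set was of the same order, 0.196 points in the first set and 0.242 in the second. A difference under 1 point was found in 218 members (87.2%, against 47.0%). The members were deeper and closer to full inclusion than the table at large, and the part of either in this contrast was not tested. The difference reached 10 points in 1 member (0.4%, against 7.19%) and 5 points in 2 (0.8%, against 17.5%), and both of these had a mean of fewer than 35 reads, as given below. Both libraries of the first set lay above both of the second in 24 events (9.6%, against 9.29% of all tested events) and below them in 29 (11.6%, against 13.5%), so both shares were near the background.

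**Figure D2:**
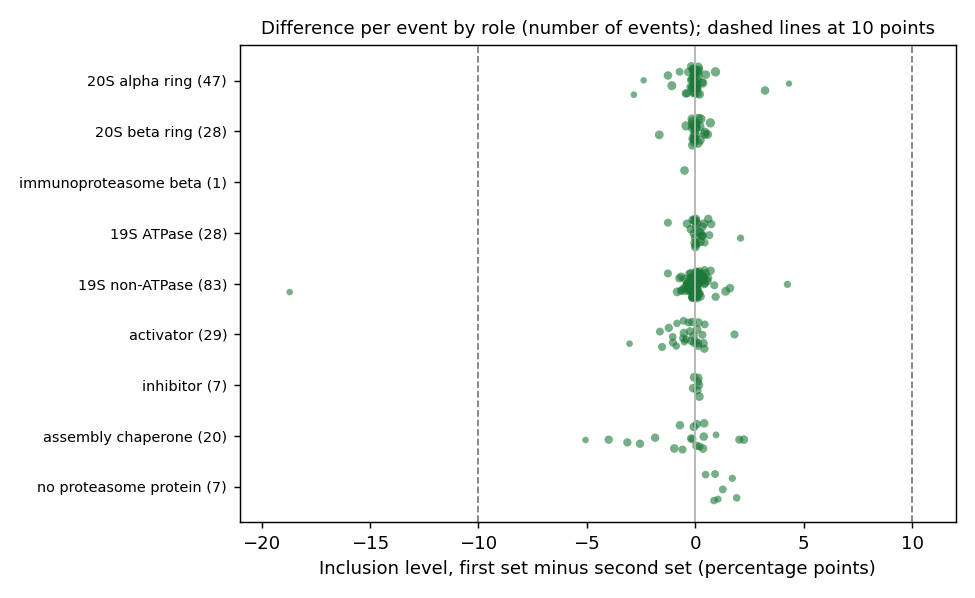
Difference in inclusion level, first set minus second set, in percentage points (horizontal axis) for each member event, by the role of the gene product with the number of events in brackets. Larger points have more reads, vertical position within a row carries no meaning, and dashed lines mark 10 points. All events but 1 lie between the dashed lines. The median absolute difference was 0.645 points for the assembly chaperones, against 0.116 for the alpha ring and 0.127 for the beta ring. Their median depths were 818, 2380 and 4960 reads, and the part of depth was not tested. The largest absolute differences were 5.06, 4.32 and 1.66 points.

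The alpha ring of the core held 47 events in 7 genes, 41 of them above 95%. Its deepest event was a 127-nt exon of PSMA7 with a mean of 9116.5 reads, which was at 100% in each library to the precision given. The 163-nt exon of PSMA4, whose sequence is given above, encodes part of an alpha subunit and had a mean level of 97.6%. Its shorter 70-nt form was the deepest alpha ring event of intermediate level.

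The 70-nt form of the PSMA4 exon was at 92.5% and 90.9% in the first set and at 83.5% and 93.5% in the second. The 83.5% lay below the other 3 libraries, and the sets overlapped. The exon was skipped by 55 and 64 reads in the first set and by 128 and 68 in the second, so the low library is the one with the most skipping reads. The difference was 3.22 percentage points, and the authors' deposited table gives it an FDR of 0.493. It turned to -1.76 points without library 1 of the second set and was 8.2 without library 2. Both forms are set against the same skipping reads, and reads across the splice junction at their common end can count for both. The levels of such nested forms are therefore no shares of 1 total.

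PSMA2 events came from 2 gene identifiers that overlap, so reads of this gene may be split or shared between them. The 60-nt exon of PSMA2 with the stop codon shown above was included at 1.35% and 1.22% in the first set and at 1.95% and 3.14% in the second. The inclusion reads behind these levels were 19 and 16 against 32 and 54. Both libraries of the first set were lower than both of the second. The authors' deposited table gives it a difference of -0.013 at an FDR of 0.0258, while the quasi-binomial adjusted p was 0.861. It was -1.26 percentage points with all libraries and -0.663 without library 2 of the second set. This exon is named here because of its FDR, after its values were seen. Its annotated transcript is a target of nonsense-mediated decay, the pathway that removes messages with an early stop.

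The 77-nt exon of PSMA2, listed under the overlapping locus, was at 39.7% and 42.8% against 31.6% and 42.3%, from a mean of 26.75 reads. Under the other identifier the same exon was at 100% and 99.9% against 99.9% and 100%, from a mean of 2296.5 reads. An exon of 186 nt in PSMA1 was at 88.0% and 75.6% against 69.2% and 100%, from 37.75 reads. For each exon the sets overlapped, and so did the 95% Wilson intervals of all 4 libraries.

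The beta ring, which carries the active sites, held 28 events in 7 genes, with 26 events above 95% and no difference beyond 1.66 points. PSMB4 had the deepest event of all members, a 207-nt exon with a mean of 11300.25 reads. It was at 99.9% and 99.9% in the first set and at 100% and 99.3% in the second. The skipping reads were 5 and 7 against 3 and 46. Library 2 of the second set thus held most of them, and the sets overlapped.

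The shorter 101-nt form of the PSMB3 exon was at 88.5% and 85.7% in the first set and at 87.7% and 89.9% in the second, from a mean of 1986.75 reads. Its difference was -1.66 percentage points (FDR 0.906 per the authors' deposited table), and the sets overlapped. In the annotation the 178-nt form is in a protein-coding transcript, whereas the 101-nt form and the skipped form are in transcripts of nonsense-mediated decay. The mean level of the 178-nt form was 95.5%. Reads across the common junction cannot be told apart between the forms, as in PSMA4.

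PSMB5, the subunit with the chymotrypsin-like active site, had the highest level among the rarely included exons. Its 85-nt exon was at 4.39% and 3.47% in the first set and at 3.72% and 3.0% in the second, a difference of 0.573 points within overlapping sets. The exon is coding. Its 95% Wilson intervals, which cover counting error only, ran from 3.71% to 5.19% in library 1 of the first set and from 2.50% to 3.59% in library 2 of the second, which were the highest and lowest libraries. The 307-nt coding exon of PSMB5, named after its values were seen, was at 99.8% and 99.8% in the first set and at 99.0% and 99.3% in the second. Its skipping reads were 5 and 5 against 37 and 27, so the sets did not overlap. The difference of 0.698 points had a quasi-binomial p of 0.00384 (adjusted 0.861) and an FDR of 1.0 per the authors' deposited table. By limma with precision weights its adjusted p was 0.0203. Another event of the 307-nt exon, with a mean of 2364.75 reads, had a difference of -0.0 in the authors' deposited table. Of the inducible beta subunits, which replace standard ones in immune cells and after interferon, only PSMB10 had an event. Its 152-nt exon was at 99.5% and 98.7% against 99.2% and 100%.

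Among the 19S ATPases, 24 of 28 events in 5 genes were above 95%. The 38-nt exon of PSMC2 was at 97.4% and 86.3% in the first set and at 94.4% and 85.2% in the second, from a mean of 99.5 reads. The gap between the libraries of each set was larger than the difference of 2.09 points between the sets. That difference changed sign without library 1 of the first set (-3.47) or library 2 of the second (-2.50). A deeper event of this exon, with a mean of 1035 reads, had a difference of -0.001 in the authors' deposited table. PSMC5 had 3 rarely included forms of 1 exon, of 250, 95 and 73 nt. These are non-coding and end at the same base. The 250-nt form was at 3.04% and 2.98% against 3.03% and 1.79%, and the 73-nt form at 2.10% and 1.69% against 1.87% and 0.446%. Library 2 of the second set was the lowest for each of the 3 forms.

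The other 19S subunits form the largest group, with 83 events in 11 genes and 74 of them above 95%. PSMD4, a ubiquitin receptor of the cap, had a 141-nt in-frame coding exon at 94.7% and 94.5% in the first set and at 91.9% and 94.1% in the second. Both libraries of the first set were higher, by a mean of 1.60 points, and its FDR per the authors' deposited table was 0.601. Other events of this 141-nt exon, with means of 4612.75 and 1351 reads, had differences of 0.006 and -0.001 there. A 118-nt exon of the same gene was at 96.1% and 100% against 89.0% and 98.6%. Its 4.25 points were the largest difference among members with a mean of at least 50 reads, from 116.75 reads and with overlapping sets. It was -0.576 points without library 1 of the second set and 9.08 without library 2 of that set. A deeper event of the 118-nt exon, with a mean of 1687.75 reads, had a difference of 0.003 in the authors' deposited table.

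PSMD6, a lid subunit, had the largest difference of all members, in a variant of its 159-nt exon event that uses another flanking exon. That event was at 51.9% and 75.0% in the first set and at 77.3% and 87.0% in the second, from a mean of 34.25 reads. Per the authors' deposited table the difference of -18.7 percentage points had an FDR of 0.223, and the first set was lower in both libraries. The skipping reads were 13 and 2 against 5 and 3, so library 1 of the first set held most of them. With its usual flanks the same exon was at 1.56% and 1.20% in the first set and at 2.11% and 2.32% in the second, from a mean of 2001.0 reads. There too both libraries of the first set were lower, with a mean difference of -0.834 points. The authors' deposited table lists it as -0.008 at an FDR of 0.0411, and the quasi-binomial adjusted p was 0.861. This second event is named for its FDR, after its values were seen. The shorter 63-nt form was at 1.19% and 0.865% against 0.874% and 1.20%, a difference of -0.00821 points.

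The 117-nt exon of PSMD12, whose first bases and stop are shown above, was at 2.23% and 1.86% in the first set and at 1.34% and 0.868% in the second. Both libraries of the first set were higher, with inclusion reads of 27 and 22 against 14 and 8, and the FDR in the authors' deposited table was 0.169.

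Over the 17 events below 5%, which came from 11 genes, the level never exceeded the 4.39% of PSMB5. In the annotation, 6 of the 17 exons are only in transcripts of nonsense-mediated decay, 5 hold an in-frame stop codon, and 6 are wholly non-coding. Of all 17, 5 have a length divisible by 3 (29.4%, against 41.2% of all members). The first set was higher in 12 (70.6%, against 62.4% of all tested events below 5%) and lower in 5. The median level of these exons was 1.19% and 0.883% in the first set, against 0.874% and 0.446% in the second. Over all tested events below 5% the medians stood in the same order of sets, at 0.899% and 0.758% against 0.528% and 0.0%.

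**Figure D3:**
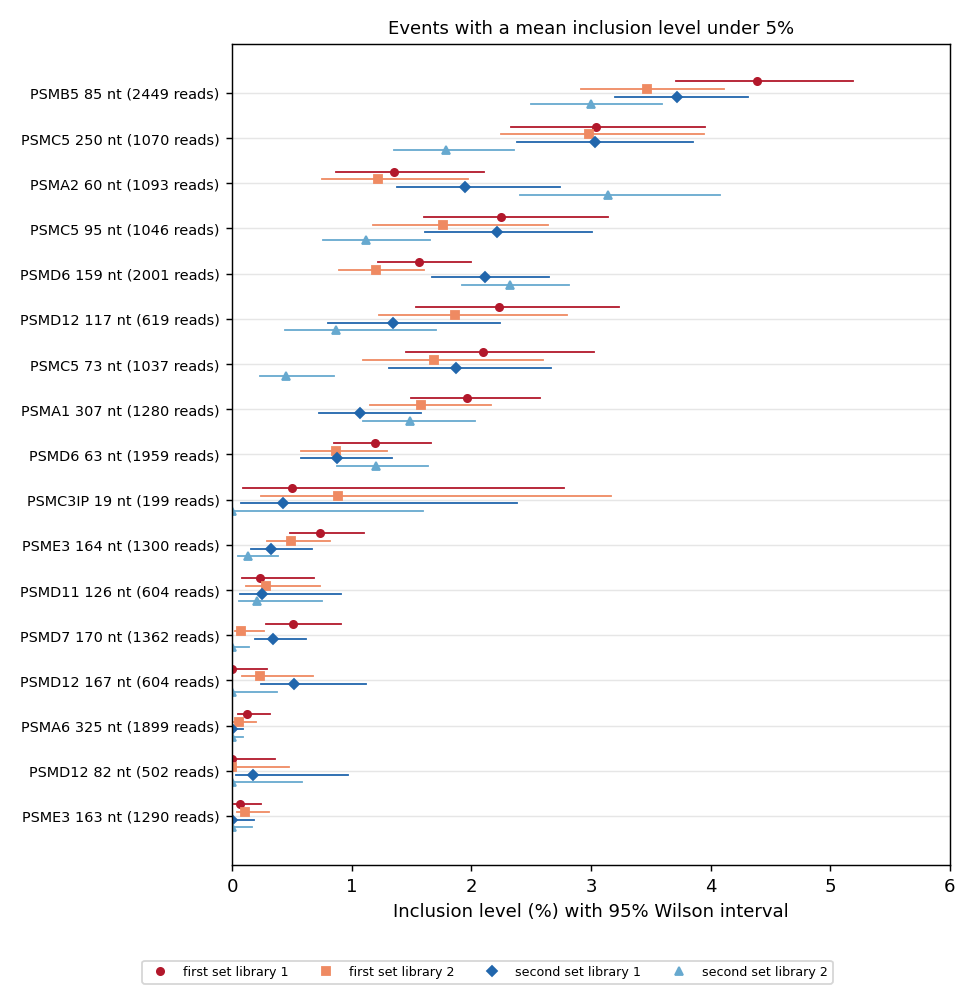
Inclusion level (%, horizontal axis, 0 to 6%) of the 17 member events with a mean level under 5%, with 95% Wilson intervals that cover counting error only, and 1 symbol per library. Red and orange are the first set and dark and light blue the second. The light blue triangles of library 2 of the second set are lowest for the PSMC5 forms and highest for the PSMA2 and PSMD6 159-nt exons.

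The activators, which cap the core in place of the 19S complex, held 29 events in 4 genes, of which 27 were above 95%. Neighbouring exons of PSME3, the nuclear activator, were almost never included. The 164-nt exon was at 0.729% and 0.487% in the first set and at 0.325% and 0.130% in the second. The 163-nt exon was at 0.0667% and 0.105% against 0% and 0%. For both exons the libraries of the first set were higher, and each had an FDR of 1.0 per the authors' deposited table. The inhibitor PSMF1 had 7 events, each at a mean of 99.9% or more and with no difference beyond 0.189 points.

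The assembly chaperones held the largest share of events at intermediate levels, 6 of 20 events. This was 30.0%, against 5.2% of all members and 24.6% of all tested events. These events are not separate measurements, since those of PSMD9 share their skipping reads, as do the forms of PSMG4. With only the deepest event of each exon, 6 of 199 members were intermediate (3.02%). The 6 chaperone genes act on the core (PSMG1, PSMG2, PSMG4) or on the base of the cap (PSMD5, PSMD9, PSMD10). The 63-nt exon of PSMG1, shown above, was at 88.9% and 86.7% in the first set and at 87.1% and 87.8% in the second. The 4 libraries lay close together, and the difference of 0.393 points was smaller than the gap between the libraries of the first set. Its mean depth was 1214.75 reads and it keeps the frame, so the skipped form encodes a shorter protein in the annotation.

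PSMG4 used the 117-nt form of its exon at 16.2% and 14.6% in the first set and at 16.8% and 22.0% in the second. The 22.0% was the highest, and both libraries of the first set were lower than both of the second. The difference was -3.99 percentage points, the FDR per the authors' deposited table was 0.256 and the quasi-binomial adjusted p was 0.861. It was -1.37 points without library 2 of the second set and -6.61 without library 1. The 152-nt form, in which the 35 added bases bring the stop codon shown above into frame, was at 8.01% and 6.62% against 7.48% and 7.54%. The difference of this form was -0.192 points, and the sets overlapped.

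PSMD9 had a pair of neighbouring exons, of 103 and 212 nt, whose levels are computed against the same skipping reads. The 103-nt exon was at 83.6% and 92.0% in the first set and at 87.9% and 93.9% in the second. The 212-nt exon was at 83.5% and 91.5% against 86.5% and 93.6%. In each set library 1 was about as far below library 2 for both exons, and the sets overlapped. The differences of -3.13 and -2.55 points turned to 1.10 and 1.48 without library 1 of the first set. A longer 256-nt form of the second exon was at 8.45% and 8.11% against 5.26% and 9.38%, from a mean of 55.5 reads. Each of these exon forms also had a deeper event with a mean level above 95%. For the 103-, 212- and 256-nt forms these had means of 1490.75, 1580.75 and 826.5 reads. Their differences in the authors' deposited table were 0.004, -0.01 and -0.019. The lower levels thus hold for the events described, not for all uses of the exons.

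PSMD10, the ankyrin-repeat chaperone also called gankyrin, had the lowest FDR of the members. Its 99-nt coding exon, shown above, was at 99.6% and 97.9% in the first set and at 98.1% and 94.9% in the second. The skipping reads were 4 and 20 against 16 and 37, and the sets overlapped. The authors' deposited table lists a difference of 0.023 at an FDR of 0.00391. In the quasi-binomial model it had an unadjusted p of 0.0289 and an adjusted p of 0.861. The difference of 2.24 percentage points was 0.649 without library 2 of the second set. PSMD5 had 1 event, from 34.5 reads, at 95.6% and 94.3% against 100% and 100%. The second set had 20 reads in each library on it, all of inclusion, and its FDR in the authors' deposited table was 1.0.

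**Figure D4:**
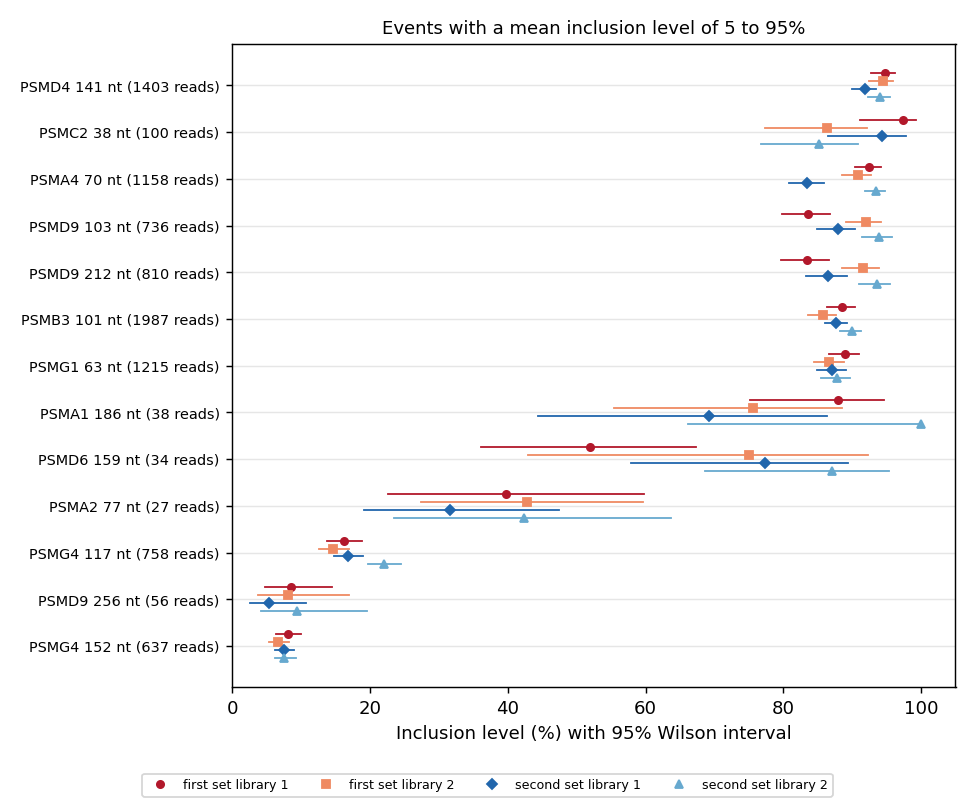
Inclusion level (%, horizontal axis) of the 13 member events with a mean level between 5% and 95%, with 95% Wilson intervals that cover counting error only, and 1 symbol per library. Red and orange are the first set and dark and light blue the second. The PSMG1 symbols lie between 86.7% and 88.9%, while the 4 PSMD6 symbols, from a mean of 34.25 reads, spread from 51.9% to 87.0%.

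Skipping of the exons above 95% was also compared by library. Of these 220 events, 143 and 137 had skipping reads in the first set, while the second had 137 and 89, and the last of these libraries stood apart. The median share of skipping was 0.148% and 0.126% in the first set, against 0.121% and 0% in the second. The mean share was 0.499% and 0.503% against 0.533% and 0.418%. Over all tested events above 95% the medians were 0.36% and 0.232% against 0.0% and 0.0%. An FDR under 0.05 in the authors' deposited table was found for 1 of the 220 member events, the PSMD10 exon, against 2.56% of all tested events at this level. At an unadjusted p under 0.05 the authors' deposited table held 7 of them (3.18%, against 7.85%).

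The structure of the exons was close to that of the table except for the introns. The median exon length was 107.5 nt (118 nt over all tested events) and 41.2% of events had a length divisible by 3 (40.0%). Both flanking introns together had a median length of 3225.5 nt, against 5161 nt. No test of these differences was made, since events of a gene share introns and reads.

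The junction reads were also summed per gene, an analysis added after the data were seen. The sums count a read once for each event that holds it and cover skipped exon events only, so they are no measure of whole-gene expression and are not comparable between genes. In CPM, reads scaled to a fixed library total, on the log2(value + 0.5) scale, 6 of 44 gene identifiers were higher in the first set (13.6%, against 38.1% of all genes with a mean of at least 20 reads) and 8 were lower (18.2%, against 3.60%), by limma with Benjamini-Hochberg adjustment. The median difference was -0.11 over the members and 0.36 over all genes.

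The lower genes included 3 beta ring subunits. PSMB7, with the trypsin-like active site, was at 232 and 278 CPM in the first set and at 345 and 360 CPM in the second. The log2 difference was -0.47 ± 0.12 (SE, limma adjusted p = 0.00182, 2 libraries a set), and the sets did not overlap. The other lower genes were PSMB1, PSMB3, PSMB10, the alpha subunit PSMA5, the ATPases PSMC3 and PSMC5, and PSMD4.

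The higher genes were PSMD10, PSMD11, PSMD12, PSME3, PSME4 and PSMD5. Of these, PSMD5 was at only 1.48 and 1.92 CPM in the first set and at 0.723 and 0.637 CPM in the second. Those values lie near the added 0.5, and its log2 difference was 0.89 ± 0.35 (SE, limma adjusted p = 0.0426). PSMD11, a lid subunit, was at 212 and 192 CPM in the first set and at 141 and 136 CPM in the second, a log2 difference of 0.54 ± 0.12 (SE, limma adjusted p = 0.000597). These directions depend on the scaling. Scaling each library to its median gene lowered every difference by 0.56 on the log2 scale. No member was then higher (14.4% of all genes were) and 35 of 44 were lower (79.5%, against 30.4%), with a log2 difference for PSMB7 of -1.03 and for PSMD11 of -0.02. Without library 1 of the first set 2 members passed instead of 14, and without library 1 of the second set 9 did. Both scalings are relative within a library and give no absolute amount of RNA. A difference in cell number or in RNA per cell cannot be read from such bulk samples, nor can these be told apart.

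**Figure D5:**
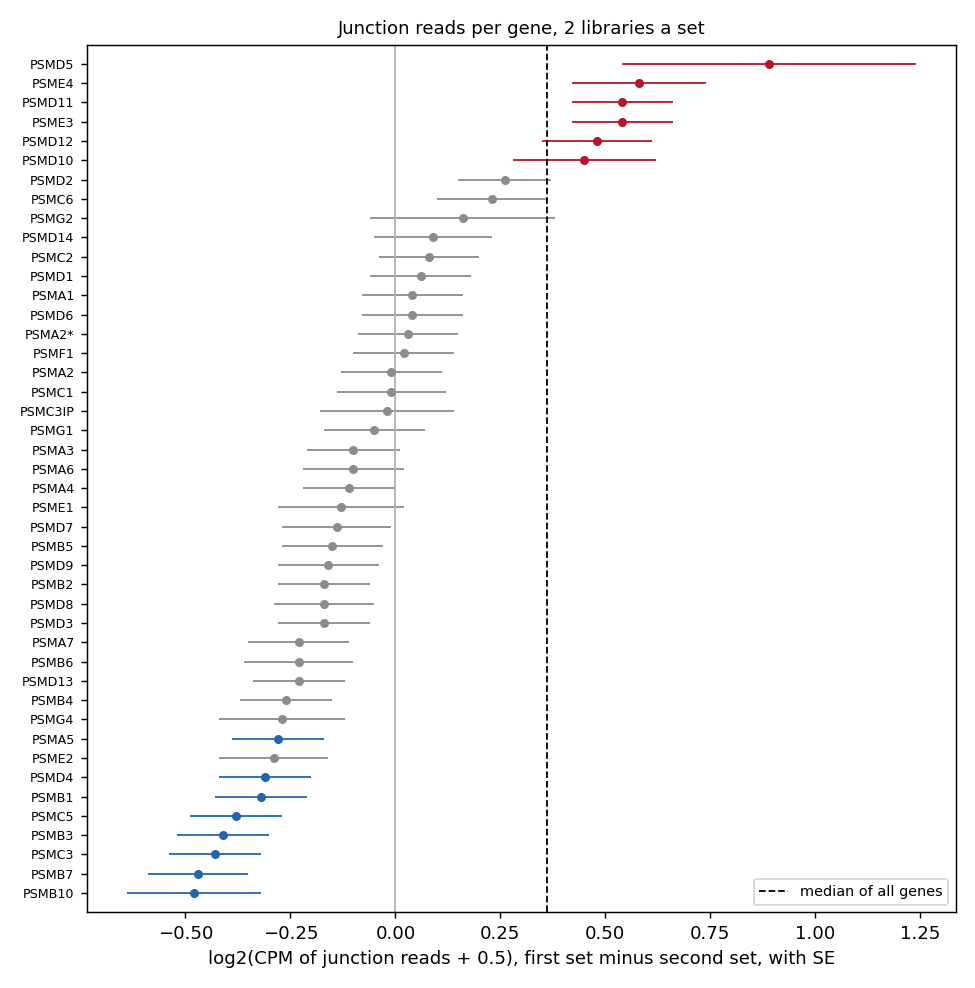
Difference in log2(CPM of junction reads + 0.5), first set minus second set, with the limma SE, for 44 gene identifiers of the members. Red genes were higher and blue genes lower at a limma adjusted p under 0.05, the asterisk marks the overlapping PSMA2 locus, and the dashed line is the median of all genes at 0.36. Most members lie to the left of that line, and the beta ring genes PSMB1, PSMB3 and PSMB7 lie among the lowest.

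Partners of the proteasome were read from a list of 31 symbols, of which 26 had tested events (178 in all). From the authors' deposited table, 1 of the 178 events was called higher in the first set and 1 was called lower. Of all tested events, 1.34% and 1.37% were so called. An FDR under 0.05 in the authors' deposited table was found for 4 of the 178, against 5.72% of all tested events. UCHL5, a deubiquitinase of the 19S cap, had a 75-nt exon at 66.5% and 66.2% in the first set and at 55.2% and 39.0% in the second. The authors' deposited table lists a difference of 0.192 at an FDR of 0.0203. Both libraries of the first set were higher, and the quasi-binomial adjusted p was 0.861. Without library 2 of the second set the difference was 11.2 percentage points. The lower event, in KIAA0368, a proteasome adaptor also called ECPAS, had a difference of -0.282 in the authors' deposited table but only 4 and 9 reads in the second set.

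Over the 4 libraries the table held 38613055, 39012939, 42868431 and 43929373 junction reads, of which the members took 1.10% and 1.15% in the first set, against 1.24% and 1.27% in the second. Of the 6 genes taken as markers of 293T cells, 3 had events in the table (VIM, KRT8 and PAX2), while none of 6 blood cell markers had one. A gene can be expressed without an event in this table.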

How the data were processed

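Poly(A) RNA-seq libraries of 293T cells were compared, 2 per group. Per the submitters' processing notes, cutadapt, STAR and hg19 were used; versions, and whether strand was used, are not given in the sources used here. Per the file headers, the deposited table has the rMATS layout for skipped exons: junction read counts of the inclusion and skipping form per library, inclusion levels (fractions) corrected for form length, their difference (a score from -1 to 1, first set minus second), and a p-value and FDR, all made by the authors. The counts of a set share a cell, so libraries carry no replicate number, and p-values refer to these libraries only.

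Levels recomputed from the counts matched the deposited ones to within 0.0005. Counts were tested with a quasi-binomial model and with limma on log2 ratios (pseudocount 0.5, or 1), over all 54503 events with Benjamini-Hochberg adjustment. The quasi-binomial dispersion was moderated with limma 3.58.1 in R 4.3.3 and lay between 3.4 and 4.8, median 3.73. The moderation went fully to the trend with depth over events with at least 10 reads of the rarer form, summed over the libraries. Events with fewer such reads, among them the 86 members with 1 to 3 skipping reads, took their dispersion from the same trend. An event's own scatter between libraries therefore had no weight in its quasi-binomial p. Junction reads summed per gene, in CPM, were tested with limma (pseudocount 0.5) over 10383 genes. Each fit was tested on simulated data. Exons were annotated by their spacing in GENCODE release 29 (45 of 46 gene identifiers matched, 1 by symbol), with no conversion of coordinates; 3 member events were not matched. Wilson intervals are at 95%.

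Members, role lists and partner list were chosen with earlier results of these data known. The rule for named events took any called by either test and the 12 deepest of intermediate level. It also took the 8 largest differences from at least 50 reads, and per role the deepest and the least included event. Of these 31 named events some are not described above, among them those of PSMG2 and PSMC3IP and the 325-nt exon of PSMA6. Other rarely included exons, other forms of these exons and events under 40 reads were named after their values were seen. Alternatives were other read minimums, thresholds, 1 event per exon, other models and each library left out. The sequence of 1 exon is not reported here.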

Additional observations from a re-analysis of the deposited data

Results flagged for a closer look

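Signal past the call threshold appeared in events left out of the comparisons for having fewer than 20 reads. In the authors' deposited table an exon of PSMG3-AS1, an antisense gene that matches by symbol only (chromosome 7, 1618923 to 1619040, 118 nt), had a difference of -0.579 with an FDR of 0.00049 in one event and of 0.332 with an FDR of 0.0198 in another, from means of 11.0 and 11.5 reads. In the first of these events library 1 of the first set held 9 of the skipping reads and library 2 held 2. In the second all 11 skipping reads came from library 2 of the second set. A 96-nt exon of PSMC2 (chromosome 7, 103003791 to 103003886) is listed in the authors' deposited table with a difference of 0.5 at an FDR of 0.0137, from a mean of 1.75 reads, with its 3 skipping reads in library 2 of the second set.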

How the results depend on the processing

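The authors' deposited table gave 0 called members under 6 of 8 other settings with all libraries; it gave 2 at a mean of at least 10 reads and 3 with no read minimum, both by construction of the filter. With each library left out in turn this count was 0 throughout, which says nothing of stability, as there was nothing to lose. The quasi-binomial count of 0 became 3 with precision-weighted limma (events of PSMB4, on 2 forms of 1 exon, and PSMB5), and ranged from 0 to 3 with each library left out; the 3 without library 1 of the second set (1.16% of all tested events were called then) were PSMD10 and the same 2 PSMB4 events. The cause was not tested. The median absolute difference ranged from 0.167 to 0.241 points with each library left out. The median inclusion level was 99.9% with no length correction. The median absolute difference of the 31 named events, 0.573 points, was 0.654 with no length correction, 0.538 with reads summed, and from 0.172 to 0.913 with each library left out. Of these events, 14 took the opposite sign in at least 1 of the 4 such fits. The other 17 did not, but the difference of some of them fell to 0. The number of genes with changed junction reads, 14, became 35 scaled to the median gene and ranged from 2 to 12 with each library left out; the cause was not tested. No paired analysis was possible because the reads of a set share a cell and carry no replicate number. Depth limits the PSMA1, PSMA2 77-nt, PSMD5 and PSMD6 events under 40 reads most.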
